A study of Bos taurus with 6 samples.

Results

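Krüppel-like factors (KLFs) are transcription factors that bind GC-rich and CACCC-box DNA through a set of C-terminal zinc fingers, and they differ in the N-terminal part that recruits co-activators or co-repressors. In stratified epithelia KLF5 is known for proliferating basal cells and KLF4 for cells that leave the cell cycle and build the barrier, while KLF9 is known as a hormone-responsive and clock-controlled gene. The genes described here are 10 KLF genes of epithelial differentiation, KLF2, KLF3, KLF4, KLF5, KLF6, KLF7, KLF9, KLF10, KLF11 and KLF13, chosen by gene name from the 32183 genes listed for each culture. Each of the 10 names had 1 entry, and all 10 passed the filter on low values described below.

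RNA was sequenced from rumen epithelial primary cells (REPC), the cells that line the first stomach of cattle, taken from 1 Holstein bull calf that was 2 weeks old and fed only milk replacer. Butyrate, a short-chain fatty acid made by rumen microbes and an inhibitor of histone deacetylases, was given to 3 cultures at 5 mM for 24 h, and 3 control cultures were profiled beside them. Since all cultures trace to 1 animal, the spread between them is that of cultures and not of calves, and p-values measure only that spread. The values are FPKM, fragments divided by transcript length and by library size, so levels may be compared between genes of different length.

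The total FPKM of all genes was 678035 to 681912 per control culture and 619401 to 629037 per butyrate culture. The deposited bounds imply an estimated 5756609 to 6186809 fragments per culture, with similar values in both groups. The paper reports more clean RNA reads in total than these fragments add up to, and the difference was not examined. The labelled cell type was checked against fixed markers, and the epithelial genes KRT5, KRT8 and CDH1 had control means of 401, 1380 and 49.8 FPKM, whereas EPCAM was at only 0.540. The fibroblast and smooth muscle lists were high as well, with COL1A1 at 1149 and ACTA2 at 2752 FPKM in control. The summed level of the 16 epithelial markers was 3225 to 3363 FPKM in control and 6243 to 6308 after butyrate, and that of the 10 fibroblast markers was 4356 to 4512 and 6374 to 6715. The 5 smooth muscle markers summed to 6468 to 6796 in control and to 2849 to 3456 after butyrate. A call means a Benjamini-Hochberg adjusted p under 0.05 in limma, which 32.5% of all tested genes met as higher and 25.9% as lower. By this call, 12 of 16 tested epithelial and 8 of 8 tested fibroblast markers were higher after butyrate. Of the other epithelial markers, KRT5 was lower, with a log2 fold change of -0.17 (limma, adjusted p = 0.0323). CDH1, DSP and PKP3 were not called. Of the smooth muscle markers, 4 of 5 were lower. The exception was DES, a muscle intermediate filament named after its values were seen, which was higher. The 8 endothelial markers summed to 2.10 to 2.42 FPKM in control and 7.20 to 9.25 after butyrate, with CDH5 at 0 in all cultures, and the 8 immune markers to 5.28 to 7.15 and 7.43 to 9.52, with PTPRC and LYZ at 0. In such bulk samples fewer cells of a type and less RNA per cell cannot be told apart, and the part of these marker changes in the KLF results was not tested.

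**Figure D1:**
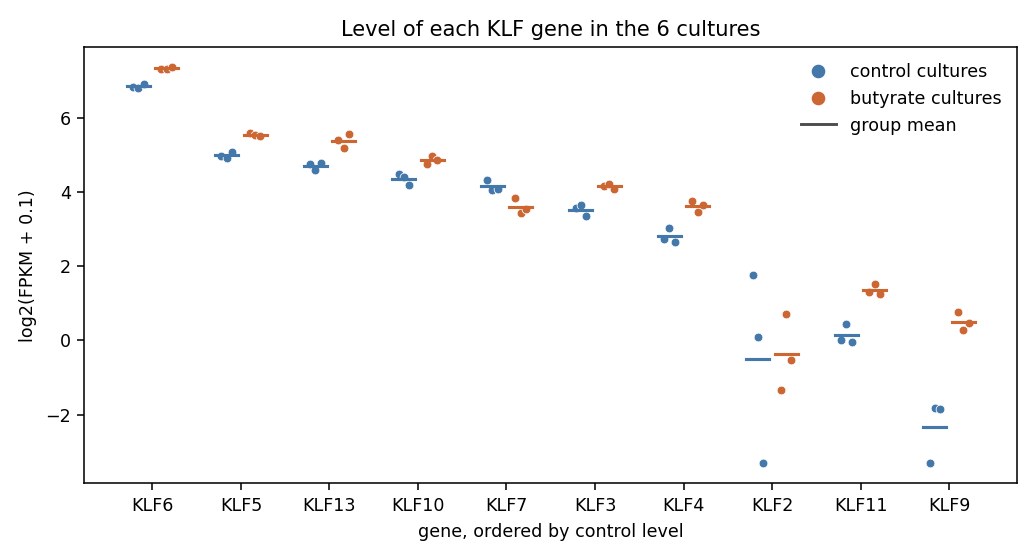
Level of each KLF gene as log2(FPKM + 0.1) in the 3 control and the 3 butyrate cultures, with a bar at the group mean, ordered by the control level. KLF6 stands highest in both groups, the butyrate points of KLF7 lie below its control points, and the points of KLF2 spread widely in both groups.

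In control REPC the mean level of the 10 genes ran from 0.119 FPKM for KLF9 to 116 for KLF6. KLF6, an early-response factor known as a tumour suppressor, had the highest level at 116 ± 4.81 FPKM (SD, n = 3), above 93.0% of the genes tested. It was followed by KLF5 at 32.0 ± 1.73, KLF13 at 26.2 ± 1.85, KLF10 at 20.7 ± 2.23, KLF7 at 17.9 ± 1.84, KLF3 at 11.5 ± 1.18 and KLF4 at 6.96 ± 0.992 FPKM (SD, n = 3 each). KLF11 stood at 1.02 ± 0.214 FPKM, while KLF2 and KLF9 had at least 1 control culture listed at 0. Neighbours in this order had separate ranges of their 3 cultures, except KLF10 and KLF7, and KLF2 and KLF11, whose ranges overlapped.

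After butyrate the order changed in the middle and at the bottom. KLF7, above KLF3 and KLF4 in control, came to stand below both, and its range then overlapped that of KLF4, with means of 12.2 and 12.3 FPKM. KLF13 at 42.0 ± 5.43 and KLF5 at 47.1 ± 1.24 FPKM (SD, n = 3) then had ranges that overlapped through 1 KLF13 culture, at 47.2. KLF9 overtook KLF2 in the mean, but their ranges overlapped.

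Butyrate was followed by a moderate rise of most of these genes. Genes were compared with limma on log2(FPKM + 0.1) over the 15813 genes whose FPKM averaged 0.1 or more, and a gene is said to have risen or fallen where its Benjamini-Hochberg adjusted p was under 0.05. KLF3, KLF4, KLF5, KLF6, KLF9, KLF10, KLF11 and KLF13 rose, KLF7 fell and KLF2 did not pass. Thus 9 of 10 genes were called, against 58.4% of all genes tested, with 8 higher, against 32.5% of all genes, and 1 lower, against 25.9%. In these 9 genes the butyrate values lay wholly on one side of the control values, above in 8 and below in 1, which held for 65.0% of all genes tested (above in 36.1%, below in 28.9%). The sizes were ordinary for this treatment, since the median absolute log2 fold change was 0.59 for the 10 genes and 0.57 over all genes. The median signed change was 0.59 for the 10 genes and 0.10 over all genes. The study made its own calls with other software, and its thresholds, an absolute log2 fold change over 2 together with a Bonferroni p below 0.05, were applied here to the limma fit. None of the 10 passed them, where they called 3.97% of all genes (2.46% higher, 1.51% lower). An unadjusted p under 0.05 in limma was found for 9 of the 10, and for 9919 of the 15813 genes tested. No other tool was run.

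**Figure D2:**
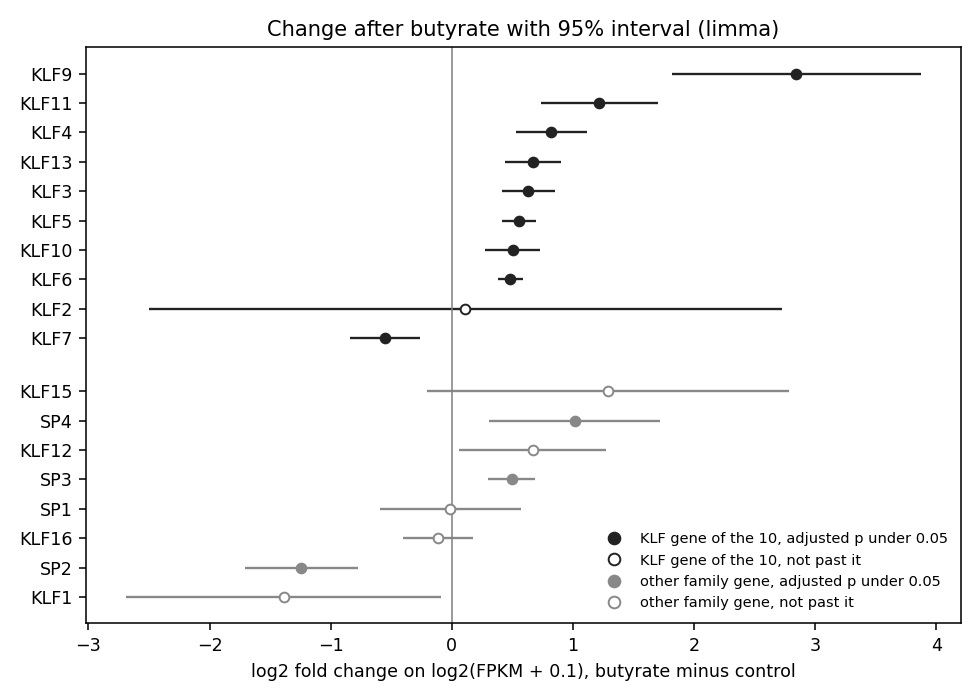
Log2 fold change on log2(FPKM + 0.1), butyrate minus control, with its 95% interval from limma, for the 10 KLF genes and for the 8 other KLF and SP genes that were tested. Filled points had a Benjamini-Hochberg adjusted p under 0.05; KLF9 stands farthest right at 2.85, and the interval of KLF2 runs from -2.50 to 2.72.

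The first group by role holds factors that mostly activate transcription and recruit histone acetyltransferases, KLF2, KLF4, KLF5, KLF6 and KLF7. KLF4, linked to cell cycle exit and barrier formation, lies on chromosome 8 from 98843682 to 98848325 (UMD3.1). It stood at 6.60, 8.08 and 6.19 FPKM in the control cultures, in the order of their replicate numbers, as for all genes here, and at 13.5, 11.0 and 12.5 in the butyrate cultures. Every butyrate culture was above every control culture, and the log2 fold change was 0.82 ± 0.13 (SE, adjusted p = 0.000626 in limma). Exact permutation of the cultures gave a two-sided p = 0.1 for KLF4, which is the smallest p that 3 against 3 allow, and the same p for each of the other 8 genes that passed.

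KLF5, a factor of proliferating basal cells and crypt cells, lies on chromosome 12 from 48099185 to 48123391. Its FPKM was 31.7, 30.5 and 33.9 in control and 48.4, 47.0 and 45.9 after butyrate. The groups were well apart, and the log2 fold change was 0.56 ± 0.06 (SE, adjusted p = 7.9e-05 in limma).

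KLF6 lies on chromosome 13 from 44945030 to 44952166. Its FPKM was 114, 113 and 122 in control and 161, 160.1 and 166 after butyrate. All butyrate cultures were above all controls, with a log2 fold change of 0.48 ± 0.05 (SE, adjusted p = 3.2e-05 in limma), and its Bonferroni-adjusted p of 0.0699 from limma was the lowest of the 10 genes. In FPKM this was the largest gain, from a mean of 116 to a mean of 163.

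KLF7, known from neurons and adipocyte precursors, was the only one of the 10 genes that fell. It lies on chromosome 2 from 95777485 to 95903649, and its FPKM was 19.99, 16.6 and 17.1 in control and 14.4, 10.7 and 11.6 after butyrate. All butyrate cultures were below all controls. The log2 fold change was -0.55, with a 95% interval from -0.84 to -0.26 (limma, adjusted p = 0.0053).

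KLF2, best known from endothelial cells and T cells, was close to the limit of detection. It lies on chromosome 7 from 6615482 to 6616953, and its FPKM was 3.30, 0.962 and 0 in control and 0.294, 1.55 and 0.6002 after butyrate. The groups overlapped completely, and the bounds of these values imply 14 fragments over the control cultures and 9 over the butyrate cultures. The ratio of these fragments, butyrate to control and relative to all fragments, was 0.648 with an exact 95% interval from 0.248 to 1.61 that covers counting error only. The log2 fold change of 0.11 had a 95% interval from -2.50 to 2.72 (limma, adjusted p = 0.942), and the cultures of each group spread widely. The sign itself depended on the scale, since the ratio of the FPKM means corresponds to a log2 value of -0.80.

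KLF3 is a repressor that recruits the co-repressor CtBP, and it was the only one of the 10 genes from that subgroup. It lies on chromosome 6 from 59587076 to 59614488. Its FPKM was 11.9, 12.4 and 10.2 in control and 17.9, 18.7 and 17.0 after butyrate, with no overlap. The log2 fold change was 0.63 ± 0.10 (SE, adjusted p = 0.000544 in limma).

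KLF9, KLF10, KLF11 and KLF13 form the subgroup that recruits the SIN3A co-repressor complex, and all 4 rose. KLF9, on chromosome 8 from 46883356 to 46907760, had the largest change of the 10 genes. It was listed at 0, 0.181 and 0.176 FPKM in control and at 1.597, 1.12 and 1.30 after butyrate. Its control level was above only 8.60% of the genes tested, whereas its absolute change exceeded that of 95.4% of them. The bounds imply 2 fragments over the 3 control cultures and 26 over the 3 butyrate cultures, a ratio of 13.1 with an exact 95% interval from 3.28 to 114 for counting error. The log2 fold change was 2.85 ± 0.45 (SE, adjusted p = 0.000667 in limma). With so few control fragments, the size rested on the pseudocount, and it was 4.23 with a pseudocount of 0.01 and 1.06 with a pseudocount of 1. Even after its rise, KLF9 made up 0.407% ± 0.0708 (SD, n = 3) of the summed FPKM of the 10 genes.

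KLF10 and KLF11, first described as early genes induced by TGF-beta, both rose but to different extents. KLF10, on chromosome 14 from 63954121 to 63957276, had an FPKM of 22.6, 21.2 and 18.2 in control and of 26.8, 31.8 and 29.3 after butyrate. The groups did not overlap, and its log2 fold change was 0.50 ± 0.10 (SE, adjusted p = 0.00232 in limma). KLF11, on chromosome 11 from 87525613 to 87537255, had an FPKM of 0.914, 1.27 and 0.879 in control and of 2.40, 2.76 and 2.28 after butyrate. All butyrate cultures were clear of the controls, and the log2 fold change of 1.22 was the second largest among the 9 called genes (limma, adjusted p = 0.00113). It was 0.79 with a pseudocount of 1.

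KLF13, known from lymphocytes and heart, is listed on chromosome 21 from 28220544 to 28221103. This entry spans 560 bases, the shortest of the 10, so its FPKM rests on a small stretch of sequence. Its FPKM was 27.1, 24.1 and 27.5 in control and 42.4, 36.4 and 47.2 after butyrate. The butyrate cultures were above the controls but spread more, and the log2 fold change was 0.67 ± 0.10 (SE, adjusted p = 0.000504 in limma).

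The precision of single values followed the level only in part. The upper confidence bound lay between 5.67% and 6.69% above the FPKM for KLF6, between 6.44% and 7.24% for KLF5 and between 20.8% and 36.3% for KLF11. In the control cultures it lay 14.1%, 15.9% and 15.4% above it for KLF7. For KLF3, with a lower control level, it lay only 13.5%, 13.5% and 14.5% above the FPKM. It lay between 25.1% and 35.9% above it for KLF13, whose short entry held between 31.0 and 63.5 implied fragments although its FPKM was the third highest. In control replicate 1 the KLF13 bounds of 18.1 and 36.0 FPKM enclosed the values of KLF5, 31.7, and KLF10, 22.6. The same held in the other control cultures, so the place of KLF13 in the control order is uncertain. For KLF2 and KLF9, in cultures above 0, it lay at least 60.3% and 64.6% above the FPKM.

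The summed FPKM of the 10 genes was 238, 228 and 236 in control and 329, 321 and 334 after butyrate. The sum was thus higher in every butyrate culture, with means of 234 ± 5.01 and 328 ± 6.53 (SD, n = 3). The make-up of this sum changed little in its main component, since KLF6 held 49.7% ± 1.88 in control and 49.6% ± 0.453 after butyrate (SD, n = 3). The clearest shift was that of KLF7, from 7.63% ± 0.666 to 3.73% ± 0.568. KLF11 went from 0.437% ± 0.102 to 0.758% ± 0.0919, and KLF9 was at most 0.0794% in a control culture and at least 0.348% in a butyrate culture. For the other 7 genes the shares in control and butyrate cultures overlapped, KLF4 among them with 2.98% ± 0.489 and 3.76% ± 0.327 (SD, n = 3). Shares sum to 100% and were not tested.

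**Figure D3:**
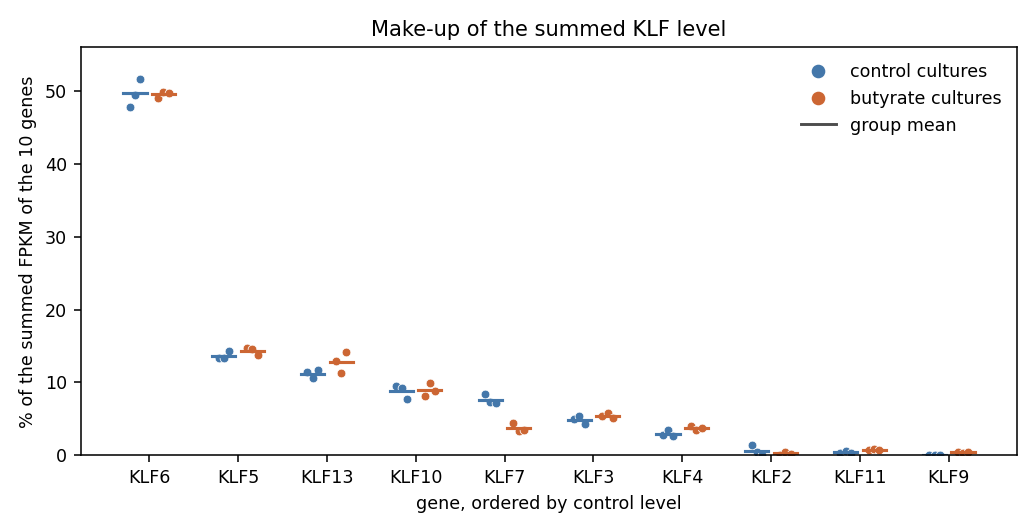
Share of each KLF gene in the summed FPKM of the 10 genes, in percent, for the 3 control and 3 butyrate cultures with a bar at the group mean. KLF6 holds close to 50% in both groups, and the mean share of KLF7 is 7.63% in control and 3.73% after butyrate.

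The ratios of 2 KLF genes within a culture were compared for 6 pairs by an exact two-sided permutation test, in which no pair could go below p = 0.1. For KLF4 to KLF5, the factors of cell cycle exit and of proliferation, the log2 ratio was -2.25, -1.90 and -2.43 in control and -1.84, -2.08 and -1.87 after butyrate. These ranges overlapped, and the difference of 0.27 did not pass the test (exact permutation p = 0.2, adjusted p = 0.3). It was 0.41 without control replicate 2 and 0.15 without control replicate 3. KLF3 to KLF5 differed by only 0.08 between groups (exact permutation p = 0.9, adjusted p = 0.9).

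Groups were fully separate for the other 3 pairs that did not involve KLF2. The log2 ratio of KLF6 to KLF7 was 2.50, 2.76 and 2.83 in control and 3.48, 3.89 and 3.83 after butyrate, a difference of 1.03 (exact permutation p = 0.1, adjusted p = 0.2). That of KLF10 to KLF11 went from a mean of 4.23 to 3.51, a difference of -0.71 with the same p, and of -0.30 with a pseudocount of 1. That of KLF9 to KLF13 was higher by 2.17, again with the same p, and rested on the low control values of KLF9, being 3.56 with a pseudocount of 0.01 and 0.41 with a pseudocount of 1. The KLF2 to KLF4 ratio ranged from -5.98 to -0.98 in control and from -5.10 to -2.75 after butyrate and did not separate the groups (exact permutation p = 0.8, adjusted p = 0.9).

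**Figure D4:**
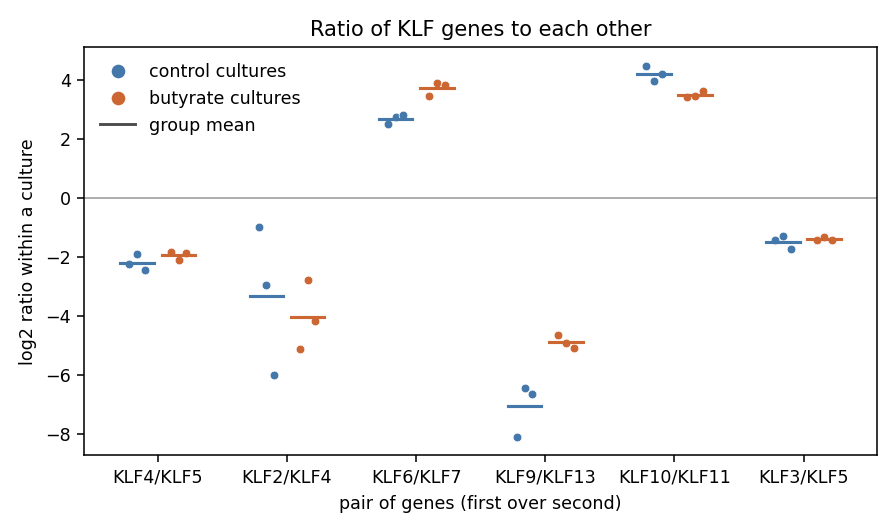
Log2 ratio of the first to the second gene of each pair within a culture, from log2(FPKM + 0.1), for the 3 control and 3 butyrate cultures with a bar at the group mean. Control and butyrate points are apart for KLF6/KLF7, KLF9/KLF13 and KLF10/KLF11 and overlap for the other 3 pairs.

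Of the 17 other KLF and SP genes on the family list, 16 were found in the tables and 8 were high enough to be tested. SP3, a ubiquitous GC-box factor that can activate or repress, rose from 13.8 ± 0.921 to 19.5 ± 1.15 FPKM (SD, n = 3), and its log2 fold change was 0.50. SP4, known from neurons, rose with a log2 fold change of 1.01, from 0.443, 0.233 and 0.479 FPKM in control to 0.855, 0.817 and 0.887. SP2 was the one tested gene of this list that fell, from 2.70, 3.63 and 3.74 FPKM to 1.16, 1.58 and 1.33, with a log2 fold change of -1.24 (limma, adjusted p = 0.000796).

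The founding GC-box factor SP1 had means of 3.19 and 3.18 FPKM and a log2 fold change of -0.01. KLF16, another member of the SIN3A-binding subgroup, did not pass at -0.12, and neither did the CtBP-binding KLF12 at 0.67 (limma, adjusted p = 0.0583). KLF1, the erythroid factor, was at 0.261, 0.280 and 0.824 FPKM in control and 0, 0.213 and 0.125 after butyrate and did not pass. KLF15, known from liver and muscle, was listed at 0 in every control culture and at 0, 0.177 and 0.424 after butyrate and did not pass. KLF8, KLF14, KLF17, SP5, SP6 and SP7 were too low to be tested, and SP8 and SP9 were listed at 0 in all 6 cultures. With 2 of 8 tested genes higher and 1 lower, 37.5% of this list was called, beside 58.4% of all genes. The difference was not tested and rests on few genes.

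Lists of genes that work with the KLFs were described by their counts, beside the 32.5% of all genes that were higher and the 25.9% that were lower. Genes whose FPKM averaged under 0.1 over the 6 cultures were not tested. A gene at 0 in control was thus tested only through its butyrate values and could not be lower, as with CNFN and S1PR1. The counts and medians over tested genes are therefore descriptions only. Of 13 tested co-regulators, 2 were higher and 3 lower, with a median log2 fold change of -0.06. CREBBP, an acetyltransferase used by activating KLFs, fell from 1.08 ± 0.0823 to 0.508 ± 0.0437 FPKM (SD, n = 3). Of the other acetyltransferases on the list, EP300 was not found by name and KAT2B did not pass, with a log2 fold change of 0.30. CTBP1, the partner of KLF3, fell from 20.4 ± 1.17 to 11.9 ± 1.19, and SAP30, a subunit of the SIN3 complex, from 38.3 ± 1.71 to 28.5 ± 2.24. SIN3A itself, named after its values were seen, rose slightly, with a log2 fold change of 0.35 (limma, adjusted p = 0.039).

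Of 11 genes of KLF turnover and modification, 2 were higher and 1 lower, with a median log2 fold change of 0.12. FBXO32, a ubiquitin ligase subunit, rose by 0.81 on the log2 scale, and SMURF1, another ubiquitin ligase, by 0.50.

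Among epithelial transcription factors other than KLFs, 12 of 20 tested genes were higher and 1 lower, with a median log2 fold change of 0.72. ELF3, an epithelium-specific ETS factor, rose from 1.09 ± 0.542 to 39.4 ± 6.10 FPKM (SD, n = 3), a log2 fold change of 5.16. CEBPA and ESRP2, a differentiation factor and an epithelial splicing regulator, had log2 fold changes of 2.39 and 2.35.

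Of 36 genes of terminal differentiation, 23 were tested, of which 13 were higher and 1 lower, with a median log2 fold change of 0.88. CNFN, a protein of the cornified envelope, was listed at 0 in all control cultures and at 1.62, 1.39 and 1.24 FPKM after butyrate. TGM5, a transglutaminase that crosslinks the envelope, went from a mean of 0.0136 to 0.876 FPKM, and LY6G6C from 8.81 ± 1.52 to 57.3 ± 2.45 (SD, n = 3). Of the 13 genes too low to be tested, 6 were listed at 0 in all 6 cultures, among them FLG, the precursor of filaggrin.

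Among 15 genes known as targets of KLF4 or KLF5 in proliferation, 4 were higher and 10 lower, with a median log2 fold change of -0.54. The mitotic genes CCNB1, BIRC5 and CDK1 had the largest changes, with log2 fold changes of -5.37, -4.48 and -3.62. CDKN1A, a cyclin-dependent kinase inhibitor that KLF4 and KLF6 are known to activate and that is named here after its values were seen, rose from 209.9 ± 2.93 to 284 ± 8.78 FPKM (SD, n = 3). The one gene that did not pass was FGFBP1. Of 6 tested KLF2 targets, 2 were higher and 1 lower. TXNIP, an inhibitor of thioredoxin, rose from 17.6 ± 0.321 to 85.7 ± 2.89 FPKM (SD, n = 3), S1PR1 was listed at 0 in control and at 0.285, 0.237 and 0.214 after butyrate, and the integrin gene ITGB7 had a log2 fold change of -1.37.

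Of 16 genes of TGF-beta signalling, in which KLF10 and KLF11 act, 9 were higher and 2 lower, with a median log2 fold change of 0.33. SKI and SMAD7, inhibitors of the pathway, rose by 0.81 and 0.62 on the log2 scale. Of 17 tested clock genes, 7 were higher and 1 lower. DBP, a clock output factor, rose from 1.79 ± 0.767 to 13.6 ± 2.59 FPKM (SD, n = 3), and RORA and NR1D1, nuclear receptors of the clock, had log2 fold changes of 1.39 and 1.37. Among the 12 tested genes of glucocorticoid and thyroid hormone response, the hormones known to induce KLF9, 7 were higher and 1 lower. THRA, the thyroid hormone receptor alpha gene, rose from 1.82 ± 0.267 to 7.88 ± 0.986 FPKM and HSD11B1, which activates glucocorticoids, from 5.84 ± 1.65 to 23.5 ± 1.65, while the metallothionein gene MT2A fell from 295 ± 15.5 to 67.2 ± 1.21 (SD, n = 3).

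**Figure D5:**
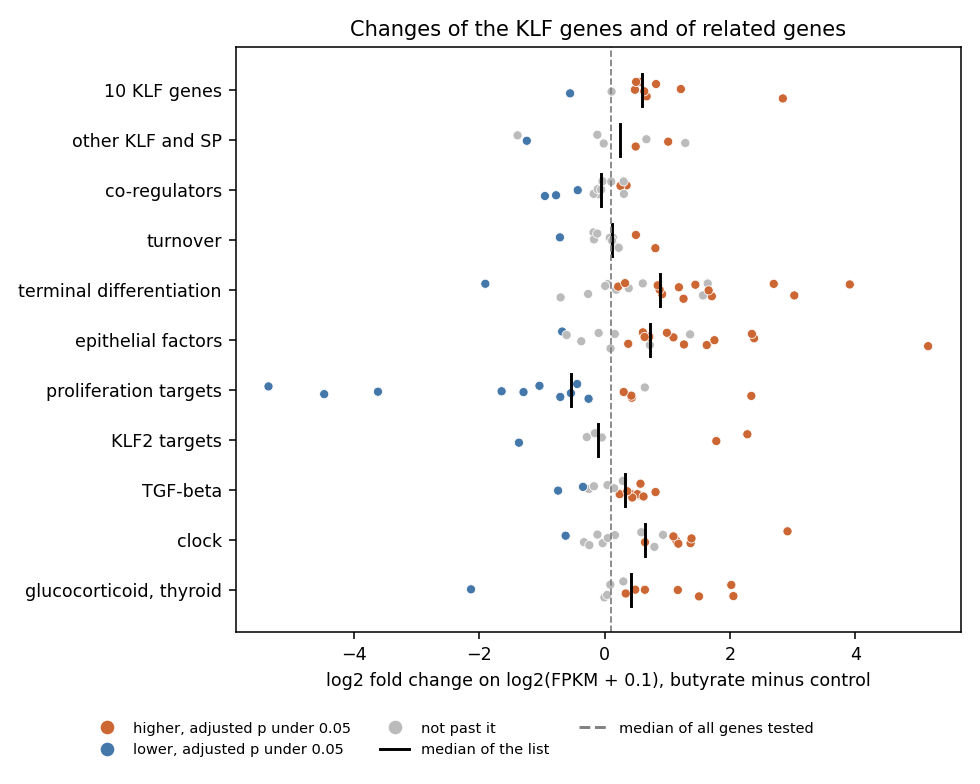
Log2 fold change on log2(FPKM + 0.1), butyrate minus control, of each tested gene of the 10 KLF genes and of the related lists, coloured by direction where the Benjamini-Hochberg adjusted p was under 0.05, with a black bar at the median of each list and a dashed line at the median of all genes tested, 0.10. The median of the proliferation targets is at -0.54 and that of terminal differentiation genes at 0.88.

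Most genes next to the KLFs on the chromosome were at or near 0. Of the 20 nearest genes, 1 on each side of each KLF gene, 5 were high enough to be tested, of which 2 were higher and none lower, beside 32.5% and 25.9% of all genes tested. LOC100848673, 3293 bases from KLF11, rose from 17.2 ± 0.702 to 22.8 ± 1.03 FPKM (SD, n = 3). GRHL1, an epithelial factor on the other side of KLF11 at a distance of 28473 bases, did not pass (limma, adjusted p = 0.0799). LOC100847666, 197621 bases from KLF7, rose with a log2 fold change of 3.19 while KLF7 fell. EPS15L1 beside KLF2 and PIBF1 beside KLF5 had log2 fold changes of -0.02 and 0.01 and did not pass.

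The patterns most like those of KLF9 and KLF7 over the 6 cultures were searched among named genes whose FPKM averaged 1 or more, by the root mean square difference of log2(FPKM + 0.1) after subtracting the control mean of each gene. For KLF9, the nearest of 11025 genes were FAM19A3, C1QTNF2, GABRP, DMTN and RAB3IL1, at differences between 0.224 and 0.304. Their log2 fold changes lay between 2.60 and 3.02. For KLF7, the nearest of 11024 genes were PAPSS2, HSPB2, MYH10, HDAC7 and PURB, at differences between 0.0623 and 0.0719. Their log2 fold changes lay between -0.61 and -0.54. Because the measure includes the change itself, close log2 fold changes follow from the search and are no separate result. For KLF9 the control part of the pattern rests on at most 1 implied fragment per culture.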

How the data were processed

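RNA from 3 butyrate and 3 control cultures of REPC was compared. Per the labels and methods, reads were trimmed with Trim Galore 0.4.1 and placed with STAR, and the authors deposited one FPKM per gene and culture, made by Cufflinks from reads with a unique position, with confidence bounds. Their processing notes name UMD3.1, and starts were raised by 1 to count from 1. Tables were joined by tracking ID and locus, and 2 genes with a failed estimate were left out. FPKM are not counts, so limma 3.58.1 (R 4.3.3, trend, tested on simulated data) was fitted to log2(FPKM + 0.1), which makes the changes of low genes look smaller, with Benjamini-Hochberg adjustment over 15813 genes. Exact permutation tests went through every division of the cultures, and the exact intervals of the fragment ratios used scipy 1.17.1.

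Implied fragments are (2 × FPKM / (upper bound − FPKM)) squared, an approximation; 55.1% of values under 10.5 fragments lay within 0.01 of a whole number. Members, lists and tests were chosen with earlier results of these data known. Named were the 10 genes, tested family genes, up to 3 genes of largest called change per list (some not reported here), defining markers, called neighbours and the 5 most alike genes; neighbours that did not pass, genes at 0, SIN3A, CDKN1A, DES and FGFBP1 were named after their values were seen. Alternatives were 2 pseudocounts, 2 filters, 3 scalings, no trend, a replicate block and leaving out each culture; the ratio of group means was added after seeing the data.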

Additional observations from a re-analysis of the deposited data

How the results depend on the processing

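The 9 called genes kept their direction and stayed called in each alternative that tested them, also with each culture left out; KLF9 was not tested where the FPKM had to average 1 or more. KLF2 changed sign to -0.23 with a pseudocount of 1, to -0.45 by quantile normalization, to -1.31 without control replicate 3, to -0.44 without butyrate replicate 2 and to -0.80 as the ratio of group means, and leaving out 1 culture gave -1.31 to 1.24. The KLF2 to KLF4 ratio changed from -0.71 to 0.23 with a pseudocount of 0.01 and to 0.45 without control replicate 1, and spanned -2.05 to 0.45 with 1 culture left out. The KLF3 to KLF5 ratio spanned -0.049 to 0.17, the lowest without control replicate 3. The KLF4 to KLF5 ratio spanned 0.15 to 0.41 with 1 culture left out. The cause was not tested. Rescaling to TPM moved the median change of all genes from 0.10 to 0.22 and quantile normalization moved it to -0.05, under which KLF7 was at -0.43 and -0.53 and KLF6 at 0.61 and 0.64. Same-numbered cultures did not deviate together (correlations across genes of 0.023, -0.0043 and 0.0018), and a block for the replicate number left 8 genes higher and 1 lower, as in the fit without it, and called 56.7% of all genes.

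The FPKM tables give no counts, so the fragments behind each gene were estimated only through the bounds, and few stand behind KLF2 and KLF9. The read totals that the paper reports were not used. The entry of KLF13 is short. Cultures of 1 calf do not show how calves differ.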
